A study of Mus musculus with 4 samples.

Results

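The 200 megabases of the mouse genome most densely covered by trimethylation of histone H3 at lysine 36 (H3K36me3) were described in cultured muscle cells. The genome was cut into bins of 1 Mb from the start of each chromosome, and the bins of chromosomes 1 to 19 were ranked by the mean of the percentages covered by H3K36me3 islands in a wild-type and a mutant library. Chromosomes 4, 6, 14 and 15 and the last partial bin of each chromosome were not ranked. The 200 bins, 10.4% of the 1931 that were ranked, were chosen by this mean cover alone. Because both libraries entered the choice, cover and all that follows from it are given as a description, with no test.

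The mark was profiled by ChIP-seq, the sequencing of DNA precipitated with an antibody to it, in myocytes of FVB mice, with 1 H3K36me3 library per genotype. Both genotypes came from myoblasts taken from skeletal muscle on postnatal day 4, kept for 5 to 10 passages and deprived of growth factor for 24 hours so that they differentiated into myotubes. The mutant lacks an enhancer of the imprinted H19/Igf2 locus that acts in muscle, and the wild type has it. The labels do not say how many animals or cultures stand behind a library, nor whether the deletion is on 1 or both alleles. No library was replicated, so genotype and library cannot be told apart.

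H3K36me3 is written by the methyltransferase SETD2, which travels with elongating RNA polymerase II, so the mark lies over the bodies of transcribed genes and tends to be stronger towards their 3′ ends. It is read by, among others, the de novo DNA methyltransferases, which bind it through their PWWP domains. A stretch of chromosome densely covered by the mark is usually one where transcribed genes are many or long. An island here is a broad stretch of enriched sequence called by the authors from windows of 200 bp. The deposited lists carry mm9 coordinates and no gene names, and which genes lie in each bin was not analysed here. For the same reason, the muscle identity of the cells was not checked against marker genes.

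The wild-type list held 58326 islands over 308.1 Mb and the mutant list 69798 islands over 297.8 Mb. Depth, solved from the deposited scores of islands that are 1 window long, was 2.82 reads per window for wild type and 3.11 for mutant, 1.102 times as deep. On the 15 ranked chromosomes the ratio of covered length, mutant to wild type, was 0.981.

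The richest bins were covered to about 1 base in 3. In the wild type their cover ran from 26.7% through a median of 34.2% to 52.3%, and in the mutant from 25.5% through 32.9% to 54.9%. The median over all 1931 bins was 8.56% in wild-type and 9.14% in mutant cells, and 114 bins held no island in either list. The 200 bins, 10.4% of those ranked, thus held 30.2% of the covered length in wild-type and 29.7% in mutant cells. Only 1 bin had a mean cover of 50% or more, 25 had 40% or more, and 24 were below 30%. The ranking had no step at its limit. Of the last bins inside, the one on chromosome 9 (95000001 to 96000000) had 29.6% for the wild type and 28.2% for the mutant. The next, on chromosome 18 (24000001 to 25000000), had 29.96% and 27.7%, and the last, on chromosome 16 (91000001 to 92000000), had 27.98% and 29.5%. The first bin outside was on chromosome 1 (183000001 to 184000000) with 29.5% and 27.96%, followed by bins that start at 6000001 on chromosome 18 (30.5%, 26.9%) and on chromosome 11 (30.1%, 27.2%). A ranking by each library alone gave much the same bins: 172 of the 200 stood among the first 200 of both libraries, and the other 28 among the first 200 of exactly 1.

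**Figure D1:**
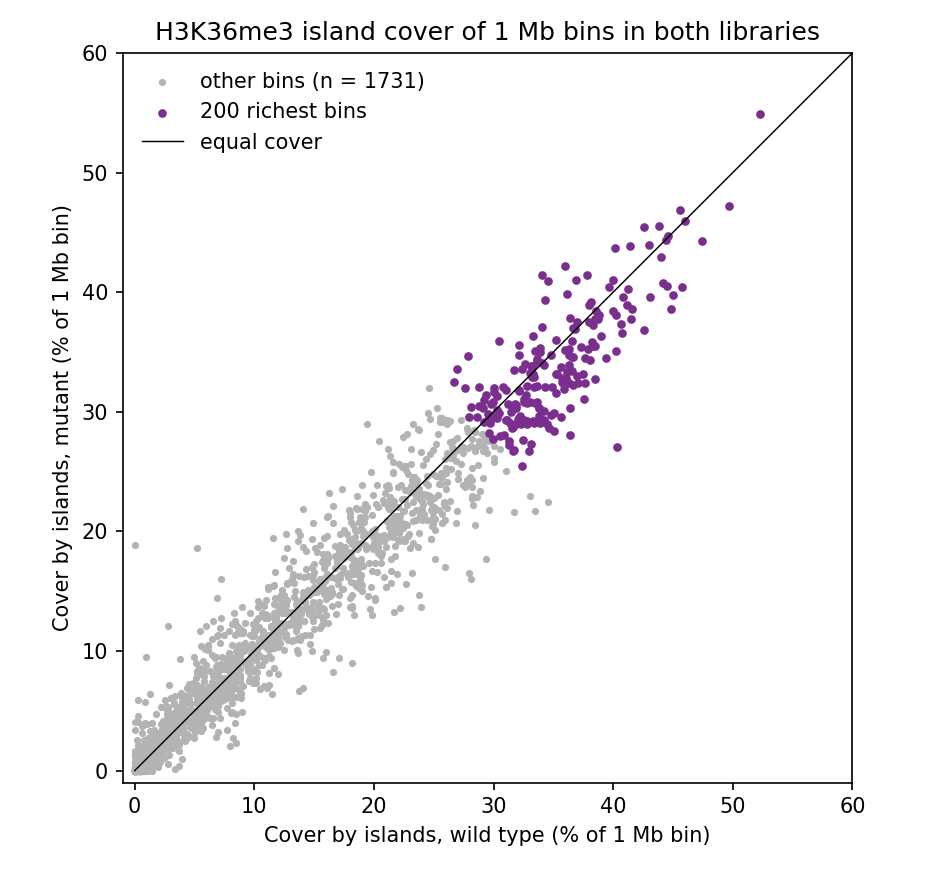
Percentage of each 1 Mb bin covered by H3K36me3 islands in the wild-type library (x axis) and the mutant library (y axis), with 1 point per bin; purple points are the 200 bins of highest mean cover, grey points the other 1731, and the line marks equal cover. The purple points run from 26.7% to 52.3% in the wild type and more of them lie below the line than above it.

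The single richest megabase was on chromosome 10, from 69000001 to 70000000. Islands covered 52.3% of it in wild-type and 54.9% in mutant cells, through 73 and 85 islands. Its longest wild-type island, from 69448801 to 69491800 (43 kb), was 97.7% covered in the mutant, where the longest island was 38 kb and lay wholly within wild-type cover. The bins on either side were much less covered, at 21.5% in wild-type and 17.7% in mutant cells before it and 12.96% and 12.4% after it. This megabase was thus a peak of its own and not the crest of a wider block. Cover inside it was not even either, since 7 of its 10 steps of 100 kb had a mean cover of 50% or more and the poorest had 5.1%.

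The second and the fifth richest bins lay 4 Mb apart on chromosome 16. From 17000001 to 18000000, cover was 49.7% in wild-type and 47.2% in mutant cells, and no 100 kb step fell below 16.2%. From 13000001 to 14000000, cover was 47.4% and 44.3%, but the first 100 kb had a mean of only 0.5% and the bin before it was covered to 1.42% and 0.64%. The bin after it had 19.04% and 21.9%. So the same high cover per megabase stood once among well covered neighbours and once beside a nearly bare one.

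Chromosome 2 held 3 of the 10 richest bins, at 59000001 to 60000000, 155000001 to 156000000 and 76000001 to 77000000. The first was covered to 46.04% in wild-type and 45.9% in mutant cells, through 83 and 106 islands. There a mutant island of 52.4 kb (59143001 to 59195400) took in nearly all of a pair of wild-type islands of 14.2 and 37.2 kb, so a gap present in the wild-type list was closed in the mutant list. The second had 78 islands in each list, cover of 43.8% and 45.6%, and no island longer than 18 kb in either. The bin from 76000001 was of the opposite kind. With 51 and 60 islands, it reached 42.6% and 45.5% through long ones: its longest was 75.4 kb in the wild type (76542201 to 76617600) and 59.2 kb in the mutant (76539001 to 76598200). Its first 2 steps of 100 kb were nearly bare, with 3.6% and then 0% in wild-type and 0% in both in mutant cells, while 4 of its last 5 lay between 77.2% and 86.2% in both libraries.

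The other 4 of the first 10 were on different chromosomes. The bin on chromosome 17 (75000001 to 76000000) had 88 islands, the most of any of the 200 in wild-type cells, and 102 in the mutant, with cover of 45.6% and 46.8%. The bin after it was covered to 1.12% and 1.88%. On chromosome 3 (88000001 to 89000000) cover was 44.6% and 44.7%, and 2 of 63 wild-type and 6 of 68 mutant islands had no overlap with an island of the other list. On chromosome 8 (63000001 to 64000000) it was 44.4% and 44.3%, with 0.76% and 0.24% in the bin before. On chromosome 5 (65000001 to 66000000) it was 43% and 43.96%, and both neighbours were themselves among the 200. Between the libraries the first 10 bins differed by at most 3.10 percentage points, and 6 of them were higher in the mutant.

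All 15 ranked chromosomes held rich bins, but not in proportion to their length. Chromosome 2 held the most, 24 of its 181 bins, followed by chromosome 5 with 23 of 152. As a share of a chromosome's bins, chromosomes 19 (16.4%, 10 bins), 16 (15.3%, 15 bins), 5 (15.1%) and 11 (14.9%, 18 bins) were highest. The lowest shares were on chromosomes 1 (5.58%, 11 of 197 bins) and 3 (5.66%, 9 of 159). Chromosome 7, which carries the H19/Igf2 locus, held 12 of 152 (7.89%). Of the chromosomes that were not ranked, 40 of the 149 bins of chromosome 6 (26.8%) reached the cover of the last bin taken, against 14 of 155 on chromosome 4, 16 of 103 on chromosome 15 and 5 of 125 on chromosome 14.

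**Figure D2:**
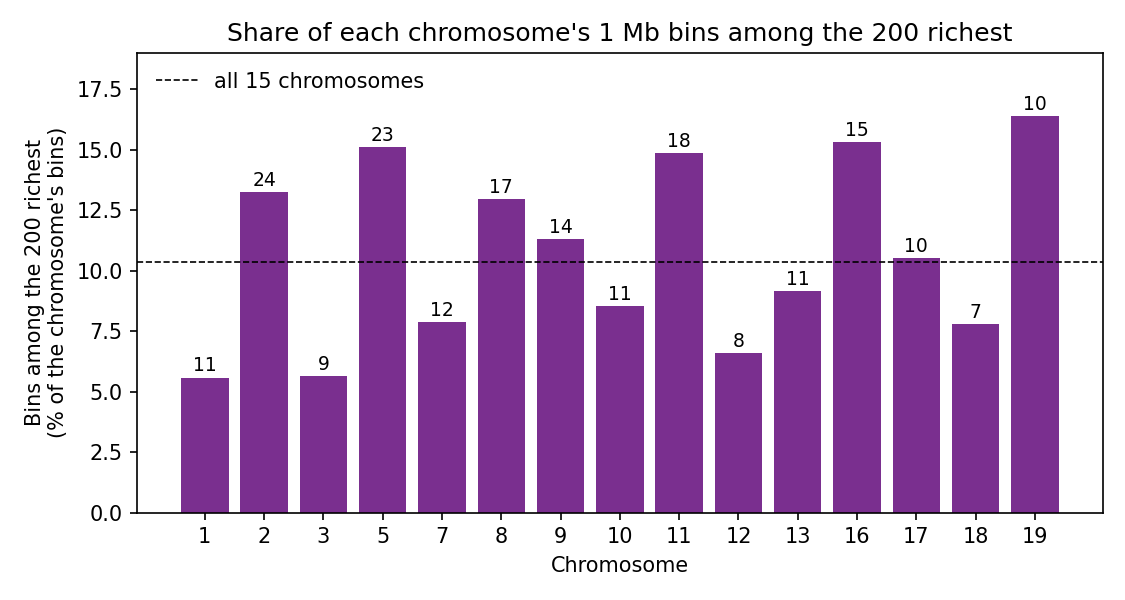
Percentage of each ranked chromosome's 1 Mb bins that are among the 200 richest (bars), with the number of such bins above each bar; the dashed line is the value over all 15 chromosomes, 10.4%. Chromosomes 19, 16, 5 and 11 stand highest, and chromosomes 1 and 3 lowest.

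The number of rich bins on a chromosome followed its number of genes only in part. RefSeq's gene table for GRCm38.p6, used here only for how many protein-coding genes each chromosome carries, gave 16581 on the 15 chromosomes. Chromosomes 12 and 16 carry 679 each, yet held 8 and 15 rich bins. Chromosome 7 carries the most, 2030, and held the fewest rich bins for its genes, 0.591 per 100, where chromosome 16 had 2.21 per 100. Of the genes on chromosome 7, 423 have symbols beginning with Olfr, Vmn1r, Vmn2r, Krt or Pcdh, which stand for olfactory and vomeronasal receptors, keratins and protocadherins, large families that are clustered in the genome and for the most part expressed in other tissues. Without these genes the value for chromosome 7 was 0.747 per 100 and still the lowest of the 15. Over the 15 chromosomes the number of rich bins had a Pearson correlation of 0.40 (Spearman 0.42) with the number of bins and of 0.57 (Spearman 0.68) with the number of protein-coding genes, or 0.62 (Spearman 0.66) without those families. These are descriptions of 15 points that all come from the same pair of libraries.

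Along the chromosomes the rich bins were spread widely. Mouse chromosomes have their centromere at one end, where mm9 numbering starts, and the first 3 Mb are almost free of assembled sequence. Of the 45 bins there, 1 held an island, with a mean cover of 0.02%. In the first 10% of the chromosomes 5.70% of bins were rich, and in the other parts the share was 11.7% (10 to 25% of the length), 9.65% (25 to 50%), 10.6% (50 to 75%), 12.6% (75 to 90%) and 10.8% (the last 10%). There were 3 rich bins that began right where the assembled sequence does, from 3000001 on chromosomes 5, 11 and 19.

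The bin at 3000001 on chromosome 11 stood apart in how it came to be rich. It was covered to 38.5% in wild-type and 32.8% in mutant cells and ranked 65. An island of 75.4 kb in the wild type (3024801 to 3100200) and of 75 kb in the mutant (3025201 to 3100200) made up part of this. Its deposited score per window was 56.0 and 88.2, where the median island of the 200 bins had 3.77 and 4.10. Without it the cover was 30.9% and 25.3%, and the mean would rank 218, outside the 200. Whether repeated sequence or input DNA accounts for that island was not tested. In the other 199 bins, 1 site reached 50 per window in both libraries, an island on chromosome 12 of 3.2 kb (wild type, 70752201 to 70755400) or 2.8 kb (mutant), and a wild-type island 1 window long on chromosome 16 did so too. Without the former, wild-type cover of its bin was 28.3% in place of 28.6%.

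Rich bins tended to lie next to or near each other, but in short stretches. The 200 bins formed 157 separate blocks, of which 127 were a single bin, 20 were pairs, 7 were runs of 3 and 3 were runs of 4. Runs held 73 bins, 36.5% of the 200. The bin directly before a rich bin was itself rich in 21.5% of cases and the one directly after in 21.6%, against 10.4% of all bins. At 5 Mb on either side the shares were 9.33% and 9.42%. The median distance from a rich bin to the nearest other one was 2 Mb, and the most isolated lay 52 Mb from its nearest.

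The 3 longest runs were 4 Mb each. The run on chromosome 16 from 91000001 to 95000000 had mean cover of 37.7% in wild-type and 34.3% in mutant cells, and held both the bin with the lowest rank of all 200 and one of the best covered, 92000001 to 93000000, with 44% and 42.9%. The run on chromosome 5 from 122000001 to 126000000 had 36.2% and 34.5%, with a top of 41.4% and 43.8% in the third of its bins. On chromosome 2, from 29000001 to 33000000, the means were 36.02% and 31.9%, and all 4 bins were lower in the mutant. Chromosome 2 held further runs of 3 at 119000001 to 122000000 and 154000001 to 157000000, and a pair at 59000001 to 61000000 that was the best covered of all runs, with 43.1% and 44.8%.

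**Figure D3:**
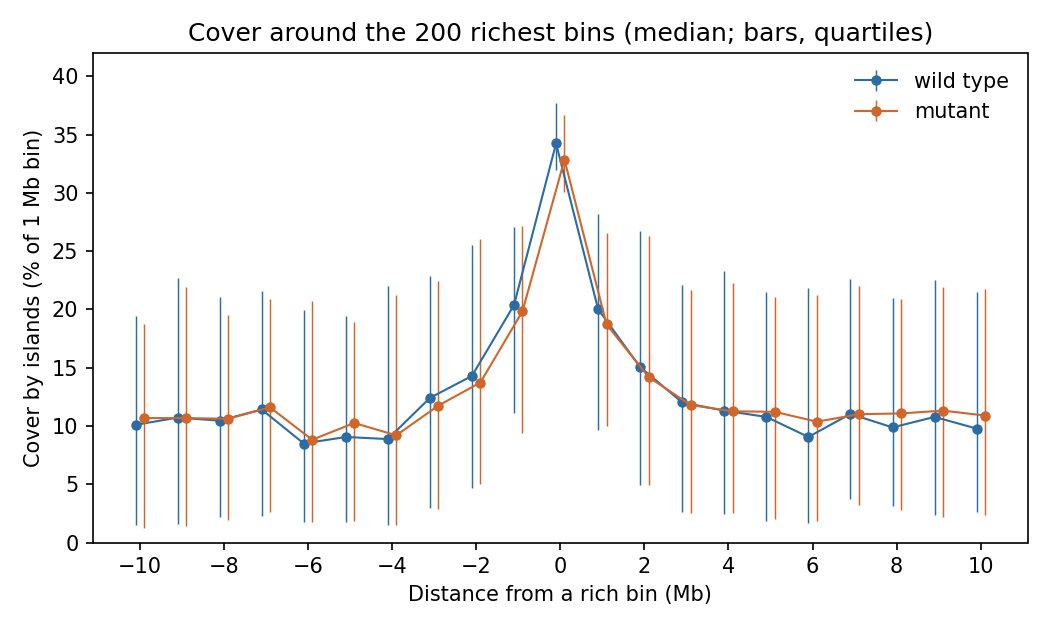
Median cover of 1 Mb bins (points; bars from the lower to the upper quartile) by distance in Mb from each of the 200 richest bins, for the wild-type and mutant libraries. Both lines drop from over 30% at the rich bins to about 20% at the next bin and lie between 8.5% and 12.4% from 3 Mb outwards.

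Cover dropped steeply outside a rich bin. In the wild type the median was 20.4% in the bin before and 20.02% in the bin after, 12.4% and 12.02% at 3 Mb, and 9.06% and 10.8% at 5 Mb. In the mutant the bins directly before and after had medians of 19.8% and 18.7%. As the bins were chosen for high cover, a drop to their neighbours follows in part from the choice. Among the 286 bins that were next to a rich bin without being one, median cover was 15.6% in wild-type and 14.6% in mutant cells, against 5.46% and 6% in the 1445 bins farther away, but 57 of the 286 had a mean cover under 5%.

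Inside the rich bins, high cover came mainly from many islands and less from long ones. The wild type had a median of 58 islands per bin (range 30 to 88) and the mutant 68.5 (33 to 109), where an island was counted in the bin that holds its midpoint. All other bins had medians of 15 and 19. In the wild type the rich bins held 3.09 times as many islands per bin as all other bins and their islands were on average 1.21 times as long, and in the mutant these ratios were 2.999 and 1.22. Set against the next 200 bins of the ranking, which are the most like them, they held 1.25 times as many islands in the wild type and 1.26 times in the mutant, with mean lengths 1.103 and 1.09 times as great. Mean island length was 6027 bp in wild-type and 4849 bp in mutant cells. Islands of 10 kb or more were 14.5% of wild-type islands and 10.1% of mutant islands in the rich bins, and they held 39.2% and 32.9% of the island length there. In all other bins they were 8.72% and 6.43% of islands and held 26.7% and 24.2% of the island length. In the next 200 bins they held 32.2% and 28.8% of it.

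Among the 200 bins, number and length traded off. Across bins the number of islands and their median length had a Pearson correlation of -0.52 in wild-type and -0.53 in mutant cells, a description over 200 bins of 1 library each in which space within a bin is itself limited. The bins at the extremes differed widely. The bin on chromosome 7 from 30000001 to 31000000 had the longest median island of the wild type, 8000 bp, with 45 islands and cover of 41.5% (4200 bp, 57 islands and 37.8% in the mutant). The bin on chromosome 17 from 64000001 to 65000000 had one of the 3 shortest, 3100 bp, with 82 islands and 30.4%, and in the mutant 3000 bp, 109 islands and 35.96%. The others at 3100 bp held fewer islands, 60 on chromosome 5 (15000001 to 16000000, cover 28.8%) and 56 on chromosome 18 (32000001 to 33000000, 28.1%). The fewest wild-type islands, 30, lay on chromosome 7 from 56000001 to 57000000, with cover of 31.6% and a longest island of 63.8 kb, and the mutant had 51 islands and a longest one of 33.6 kb there.

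**Figure D4:**
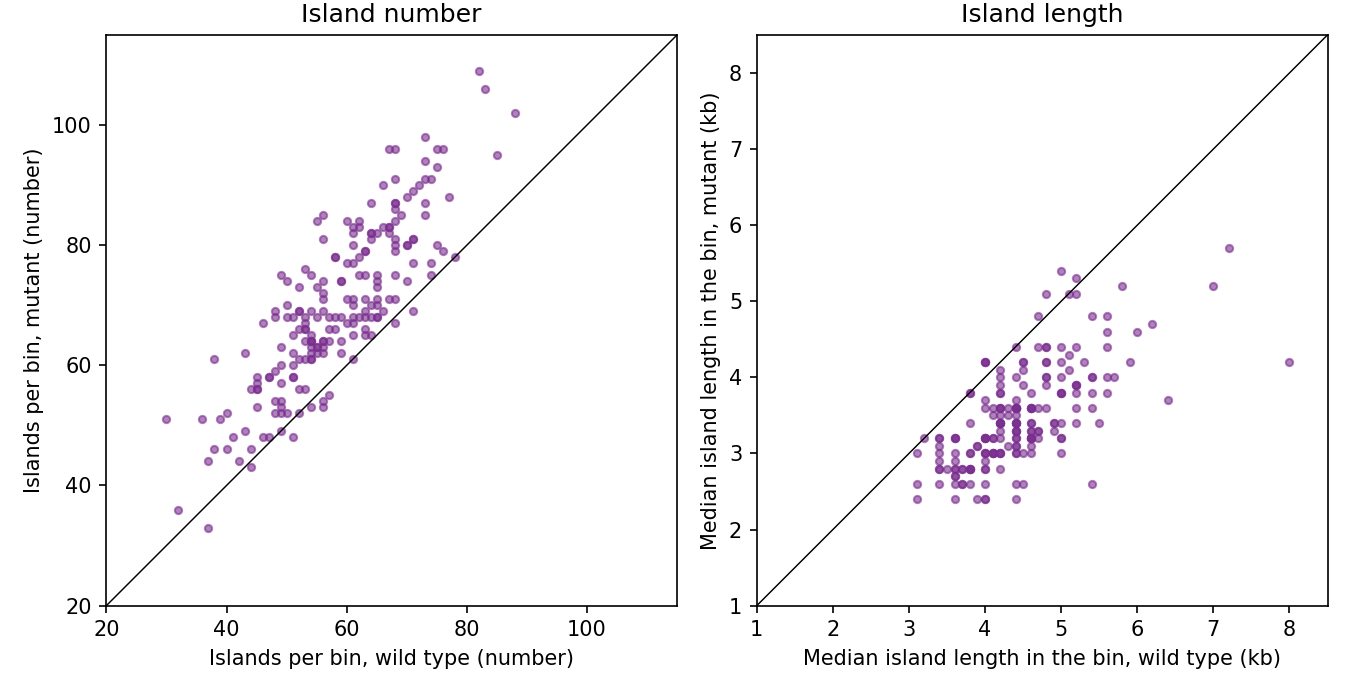
Number of islands (left) and median island length in kb (right) in each of the 200 richest bins, wild type on the x axis and mutant on the y axis, with a line of equal values. In 187 bins the mutant had more islands, and in 188 bins its median island was shorter. Bins outside the 200 were not counted in this way.

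The mutant list broke this cover into more and shorter islands nearly everywhere. It had more islands than the wild type in 187 of the 200 bins, fewer in 9 and as many in 4, and a shorter median island in 188 and a longer one in 7. Such counts of single bins were not made outside the 200, so they are not a trait shown for these bins alone. Within the 200 bins the total was 13961 islands against 11668, a ratio of 1.20, with a ratio of mean length of 0.805. In all other bins these ratios were 1.23 and 0.803, so the shift was not larger in the rich bins. The gaps between islands were shorter in the mutant too, with a median of 2800 bp against 4000 bp, and 39.2% of them were under 2 kb against 32.8%. In all other bins the median gaps were 4400 bp and 6800 bp, and 31.1% and 24.9% were under 2 kb. A wild-type island more often spanned several mutant islands than the reverse. Of 11668 wild-type islands 2079 (17.8%) overlapped at least 2 islands of the mutant, and of 13961 mutant islands 1247 (8.93%) overlapped at least 2 of the wild type. In all other bins these shares were 13.1% and 6.60%. Depth moved with this difference between the lists, at 3.11 against 2.82 reads per window, and its part in the result was not tested.

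Cover within a rich megabase was patchy at a scale of 100 kb. Of 2000 steps of 100 kb, 485 (24.3%) had a mean cover of 50% or more and 81 (4.05%) were under 1%, against 3.30% and 47.3% of the steps in all other bins and 13.6% and 10.6% in the next 200 bins. In 138 of the 200 bins no step was under 1%. No bin was dense throughout, as the largest number of steps at 50% or more was 7 of 10, and 7 bins had none at all.

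The same sequence was largely covered in both libraries. The length covered in both as a share of that covered in either (the Jaccard index) was 65.3% over the 200 bins, 60.9% in the next 200 bins and 55.3% in all other bins. A higher value is favoured by higher cover alone. Single bins ran from 46.1% on chromosome 5 (105000001 to 106000000, cover of 35.1% and 29.9%) to 81.02% on the same chromosome (135000001 to 136000000, 29.7% and 29.2%). In the latter, islands of 54 kb and 52.8 kb lay at the same place. In the rich bins 88.2% of wild-type islands overlapped a mutant island by at least 1 bp and 82.1% of mutant islands overlapped a wild-type one, against 81.7% and 71.4% in all other bins. Islands without such overlap were short, with medians of 3200 bp in wild-type and 2000 bp in mutant cells, and 11 and 1 of them reached 10 kb. In all other bins the medians were 3000 and 2000 bp, and 19 and 22 reached 10 kb (3 and 5 in the next 200 bins). In the rich bins such islands accounted for 30.2% of the length covered in the wild type alone and 42.7% of that covered in the mutant alone. These shares were 41.6% and 57.1% in all other bins. The remainder lay at the edges and in the gaps of islands found in both.

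Cover of the rich bins was on the whole slightly lower in the mutant. The median difference, mutant minus wild type, was -1.47 percentage points (quartiles -3.41 and 0.77). Of the 200 bins, 172 differed by less than 5 points, as did 172 of the next 200 and 1818 of all 1931. Differences of 5 points or more were thus a larger share of the rich bins than of all bins. Cover was higher in the mutant in 61 bins, or 30.5%, where 40.7% of all 1931 bins were, and higher in the wild type in 139, where 53% of all bins were and 122 bins were equal. The summed length was 67.7 Mb in the mutant and 70.4 Mb in the wild type, a ratio of 0.962, against 0.968 in the next 200 bins and 0.990 in all other bins. Along the whole ranking the ratio had no single direction. In successive groups of 200 bins it was 0.962, 0.968, 0.964, 0.994, 1.06, 1.03 and 1.09, and then 0.909 and 0.647 in the groups ranked 1401 to 1600 and 1601 to 1800, where islands covered only 2.73 and 1.04 Mb of the wild type. Islands within 2 kb of each other were also joined, which removes much of the difference in breaks. The ratio in the rich bins was then 0.991, 44% of them were higher in the mutant, and the median difference was -0.38 points. Joining counts the filled gaps as cover. It raised median cover from 32.9% to 36.1% in the mutant and from 34.2% to 36.4% in the wild type. The other groups of that setting down to rank 1400 had ratios from 0.998 to 1.13, and the last 2 had 0.926 and 0.639. When each list was limited to the 50% of islands with the highest scores, the contrast with other bins depended on the measure. The share of bins higher in the mutant was 45.5% among the rich bins and 45.3% among the others. The ratio of covered length in that setting was 0.986 in the rich and 1.04 in the other bins. With islands of at least 2 kb only, the ratio was 0.923 in the rich and 0.930 in the other bins. No test of genotype was possible for any of these values.

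**Figure D5:**
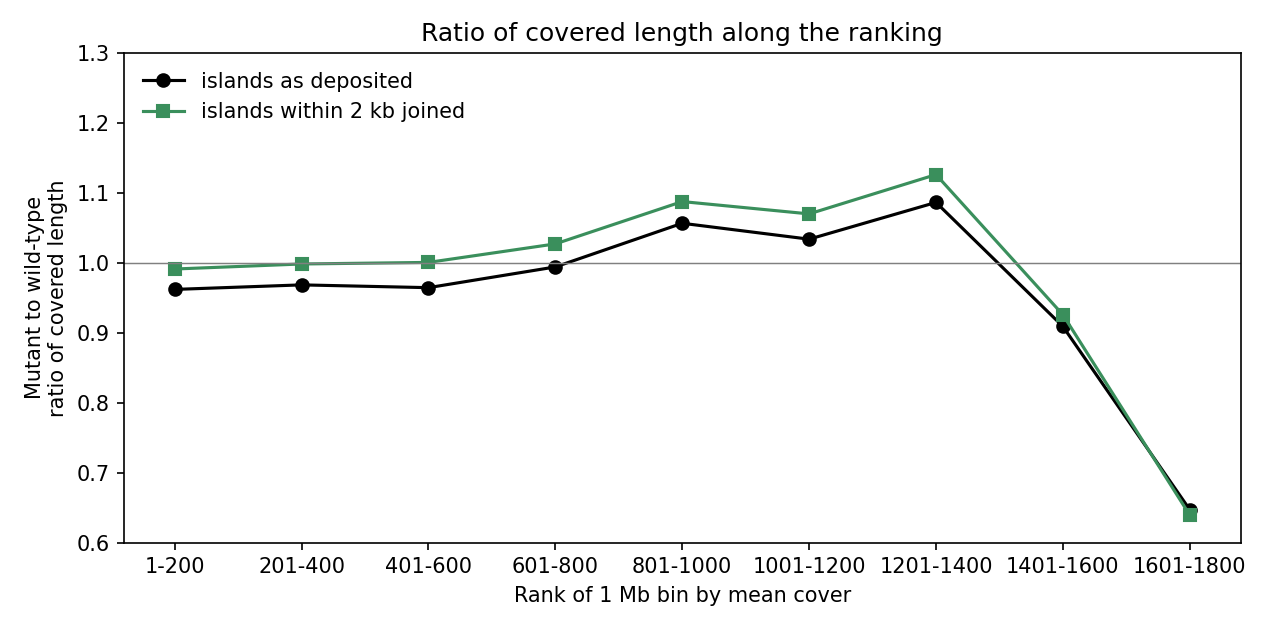
Mutant to wild-type ratio of the length covered by islands, in groups of 200 bins ordered by mean cover, for the islands as deposited (black) and with islands within 2 kb joined (green); the grey line marks equal length, the y axis starts at 0.6, and the last 131 bins, nearly without islands, are not drawn. The richest group has 0.962 and 0.991, the group ranked 1201 to 1400 has 1.09 and 1.13, and the group ranked 1601 to 1800 has 0.647 and 0.639.

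Large differences were absent among the rich bins by ratio, and by points about as rare as over all bins. No rich bin reached a ratio of 1.5 in either direction. Of the 1551 bins with a mean cover of at least 1%, 7.61% had at least 1.5 times as much in the mutant and 6.77% in the wild type. That ratio is harder to reach at high cover. By points, 1 rich bin differed by 10 or more, in favour of the wild type, as did 0.466% of all bins, and none in favour of the mutant, as did 0.104% of all bins. By chromosome, the ratio of summed cover in the rich bins ran from 0.920 on chromosome 19 to 1.00 on chromosome 10. Chromosome 10 was also where most of the rich bins were higher in the mutant, 6 of 11, against 1 of 11 on chromosome 13, 1 of 9 on chromosome 3 and 1 of 8 on chromosome 12.

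The 1 bin past 10 points was on chromosome 16, from 93000001 to 94000000, inside the 4 Mb run described above. It was covered to 40.3% in wild-type and 27.04% in mutant cells, a difference of -13.28 points. The difference was spread over the bin. Cover was lower in the mutant in 8 of the 10 steps of 100 kb, by 24.6 points at most (35.2% against 10.6%, 93300001 to 93400000), and higher in the last 2. Of its 65 wild-type islands 16 had no counterpart, the longest of them 7 kb, and of its 68 mutant islands 7 had none. Over all 200 bins, 11.8% of wild-type and 17.9% of mutant islands had none. As this bin was taken for its higher cover in the wild type, these counts and the lower steps follow in part from the choice. Another wild-type island, from 93060201 to 93080800 (20.6 kb), was 42.7% covered in the mutant. By contrast, the longest, from 93843201 to 93878600 (35.4 kb), was 95.5% covered. The neighbours in the run were close between the libraries, with 44% and 42.9% before it and 38.5% and 37.8% after it.

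The next largest differences in favour of the wild type ran from -8.34 to -6.52 points, mutant minus wild type. They lay on chromosome 19 (56000001 to 57000000, 36.4% and 28.02%), chromosome 13 (52000001 to 53000000, 32.4% and 25.5%), chromosome 3 (55000001 to 56000000, 35.1% and 28.4%) and chromosome 11 (53000001 to 54000000, 37.6% and 31.1%). In the chromosome 19 bin the longest island was the same in both, 35.2 and 34.8 kb from 56392201 and 56392401, and 9 of 10 steps of 100 kb were lower in the mutant. Lower steps again follow in part from the choice of the bin. On chromosome 3 the longest island was 27.6 kb in wild-type and 12.2 kb in mutant cells, which had 90 islands against 66. Islands without a counterpart were more in the mutant here, 26 against 11 (47.4 and 41.8 kb), so the difference lay within islands found in both.

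In favour of the mutant the largest difference was 7.40 points, on chromosome 2 (6000001 to 7000000), where the mutant had 41.4% and the wild type 34.04%. A mutant island of 46.4 kb (6508401 to 6554800) spanned 4 wild-type islands, of which the longest was 23 kb, and 25 of 96 mutant islands had no counterpart against 5 of 76. The others were on chromosome 9 (72000001 to 73000000, 27.8% and 34.7%), chromosome 7 (144000001 to 145000000, 26.9% and 33.6%), chromosome 10 (12000001 to 13000000, 34.6% and 40.96%) and chromosome 11 (86000001 to 87000000, 35.98% and 42.2%). In the chromosome 9 bin all 10 steps of 100 kb were higher in the mutant, by 0.2 to 20.4 points (18.4% against 38.8%, 72700001 to 72800000). In all 5 bins the mutant had more islands without a counterpart, between 20 and 29 against 2 to 8. As these bins were taken for their higher cover in the mutant, such an excess follows in part from the choice. Over all 200 bins, 17.9% of mutant and 11.8% of wild-type islands had no counterpart.

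The chromosome 7 bin was 1 of only 2 of the 12 on that chromosome that were higher in the mutant, and the last rich bin before its end. There, 20 of 58 mutant islands had no counterpart, with 48.6 kb between them, against 2 of 51 wild-type islands with 5.6 kb. The other mutant-higher bin, 87000001 to 88000000, had 31.7% and 33.5%. Over the 12 bins the ratio of mutant to wild-type cover was 0.952, where the ratios of the 15 chromosomes ran from 0.920 on chromosome 19 to 1.00 on chromosome 10. Whether the deletion affects cover in the bins of chromosome 7 was not tested.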

How the data were processed

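Per the submitters' processing notes, reads were handled with Bowtie 1.0.0 (alignment of short reads) and SICER 1.1 (calling of diffuse enrichment), and the genome build was mm9. The authors deposited an island list for each library, in which every island has coordinates and a score, and per the file names the window was 200 bp and the gap 600 bp. Use of input libraries or duplicate reads in the calls was not given in the sources used here. The 2 input libraries were not analysed here.

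Cover was counted in windows of 200 bp and summed in bins of 1 Mb (Python 3.11.15; pandas 2.3.3, numpy 2.4.6; scipy 1.17.1; figures with matplotlib 3.10.9). Coordinates are counted from 1. Ties were ordered by position, and mm9 chromosome lengths were entered by hand. A score grows with depth and length, so deposited scores were not compared between lists. Depth came from a Poisson model of the scores of islands 1 window long (8 wild-type, 14 mutant), with a largest residual of 2.7e-07 score units, and total reads are unknown. Named are the 10 bins of highest cover, the 3 longest runs, the 5 largest differences each way and the 3 bins on each side of the limit; extremes, other runs and the bins at 3000001 on chromosome 11, 59000001 on chromosome 2 as a pair and 87000001 on chromosome 7 were singled out after their values were seen. The bins and lists were chosen with earlier results of these data known. The computations were tested on simulated data. Alternatives are given in the closing section.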

Additional observations from a re-analysis of the deposited data

How the results depend on the processing

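Leaving out replicates was not possible, as there are none. No paired analysis was possible because each genotype has 1 library and no test was run. Most of the chosen bins were kept in the settings tried, but they depended on which chromosomes were ranked and where the bin edges fell. Of the 200, 180 were kept with the upper 50% of each list by score, 195 after removal of islands under 2 kb and 196 after joining islands within 2 kb. When ranked by the lower of the 2 covers, 190 were kept. Without islands of 50 or more score per window (a setting added after seeing the data), 199 were. With all 19 autosomes ranked, 142 were kept. With bins shifted by 500 kb, 153 overlapped a bin chosen then. The top 100 kept 100 by construction. Median cover in the wild type and mutant was 27.7% and 27.1% (upper 50%), 33.5% and 30.97% (at least 2 kb), 36.4% and 36.1% (joined), 34.2% and 32.8% (lower cover), 33.9% and 32.95% (shifted), 37.7% and 36.7% (top 100), 32.1% and 30.2% (top 300) and 36.5% and 35.03% (all autosomes). Without the islands of high score the wild-type median was 34.15%. Bins in runs numbered 26 in the top 100 and 150 in the top 300, and the longest run 3 to 5 bins in any setting. The median number of islands was 34 and 40 in the upper 50% and 38 and 41 with islands joined. Median island length in the wild type and mutant was 6400 and 5200 bp (upper 50%), 4600 and 4200 bp (at least 2 kb), 5600 and 4800 bp (joined) and 4200 and 3200 bp (top 300), so it stayed shorter in the mutant in each of these.

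The median difference, mutant minus wild type, kept its sign in every setting run. It was -0.60 points (upper 50%), -2.61 (at least 2 kb), -0.38 (joined), -1.27 (lower cover), -1.05 (shifted), -1.15 (top 100), -1.13 (top 300) and -1.97 (all autosomes). In the same order the ratio of covered length was 0.986, 0.923, 0.991, 0.967, 0.964, 0.970, 0.965 and 0.963, and it was 0.963 (0.9625) without the islands of high score. Bins higher in the mutant were 45.5% (upper 50%), 18.5% (at least 2 kb) and 44% (joined), against 45.3%, 31.1% and 46.7% of the other bins. Each of these settings treats the lists unequally. The upper 50% holds more mutant than wild-type islands, and short islands are more frequent in the mutant list. Joining fills more gaps in the mutant list, where 39.2% of gaps in the rich bins were under 2 kb against 32.8% in the wild type. What depth limits in the gaps inside the rich bins was not tested.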
